A study of Mus musculus with 8 samples.

Results

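The Id genes (*Id1*, *Id2*, *Id3* and *Id4*) and 4 further genes that bone morphogenetic protein (BMP) signaling is known to induce, *Smad6*, *Smad7*, *Bambi* and *Atoh8*, were examined in tissue labelled brown adipose tissue from mice injected with saline or with sonicated *Porphyromonas gingivalis*. Every spot whose deposited gene name equals 1 of these 8 names was taken, of 37074 names on the array. This gave 10 probes of 8 genes, with 2 probes each for *Id2* and *Smad7*, among 56605 probes that are not controls. All 10 passed the filter on dim probes, for which at least 4 arrays had to be well above background, and so were among the 33820 probes tested.

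Both groups were C57BL/6J male mice, 12 weeks old, and the tissue was taken 18 h after an intravenous injection. Co mice (n = 4) received saline, and Pg mice (n = 4) received sonicated *P. gingivalis* in 100 μL of saline at a dose of 10 to the power of 8 CFU, which the sample labels print as 108 CFU. RNA of each mouse was hybridized to its own Agilent one-color array, so the tests measure the spread between mice. Levels are given as log2 of the quantile-normalized signal, and a level is compared between groups only within a probe, since the brightness of different probes cannot be compared. In bulk tissue, fewer cells of a type and less RNA per cell cannot be told apart.

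Id proteins are helix-loop-helix proteins without a DNA-binding region. They pair with E proteins such as TCF3 and keep them from activating genes of differentiation. BMP ligands bind paired type I and type II receptors, which phosphorylate SMAD1 and SMAD5, and these enter the nucleus with SMAD4 and switch on the Id genes. The same signal induces its own brakes, namely the inhibitory SMADs encoded by *Smad6* and *Smad7* and the decoy receptor encoded by *Bambi*. In adipose tissue BMPs are known for their part in the commitment of precursors to the white or brown lineage, and *Id1* and *Id3* are also well known from endothelial cells.

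The label of the tissue was checked against cell type markers. Of 10 brown adipocyte genes, 8 were well above background on all 8 arrays, whereas *Ucp1*, which encodes the uncoupling protein that defines brown fat, and *Elovl3*, a fatty acid elongase of brown fat, were well above background on none. The values of *Ucp1* and *Elovl3*, read by 1 probe each, go against the label, so the tissue is named here only as labelled. The 10 adipocyte genes were well above background on all 8 arrays. The study reports *Ucp1* and *Cidea* expression in its brown adipose tissue by quantitative PCR. All 10 skeletal muscle genes, among them the troponin gene *Tnnt3*, were well above background on all arrays, with a log2 summed signal of 21.44 to 21.52 in Co mice and 21.41 to 21.49 in Pg mice. The Co arrays had 34761 to 35831 probes well above background and the Pg arrays 31135 to 34066. All arrays were on 1 slide with the Co samples in the first row and the Pg samples in the second, so that position on the slide and treatment cannot be told apart.

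*Id1* and *Id3* were significantly upregulated 1.41-fold and 1.26-fold in Pg mice relative to Co mice. No other member probe passed the threshold of a Benjamini-Hochberg q under 0.1 by limma, and none of the 10 was a differentially expressed gene (DEG), which also required a fold change above 1.5. The members were chosen with earlier results of these data known, so the shares given next are a description only. The 2 called probes are 20% of the 10, where 7.82% of all tested probes were called and 1.82% were called as higher. That background itself rested on single arrays: without 1 array, between 0.00887% (without Co replicate 3) and 7.13% (without Pg replicate 3) of all probes were called. Of the 10 probes, 8 had a higher and 2 a lower mean in Pg mice, a split that changed to 9 higher with 75th percentile scaling or without normalization between arrays and to 7 higher with the median signal. With the normalized values of the authors, which gave no fit for the brighter *Smad7* probe, 7 of the other 9 were higher. Leaving out 1 array gave between 5 and 8 higher, with 5 without Pg replicate 4. The median log2 fold change of the members was 0.11, beside -0.040 over all tested probes. The DEG threshold was passed by 1.61% of all tested probes.

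**Figure D1:**
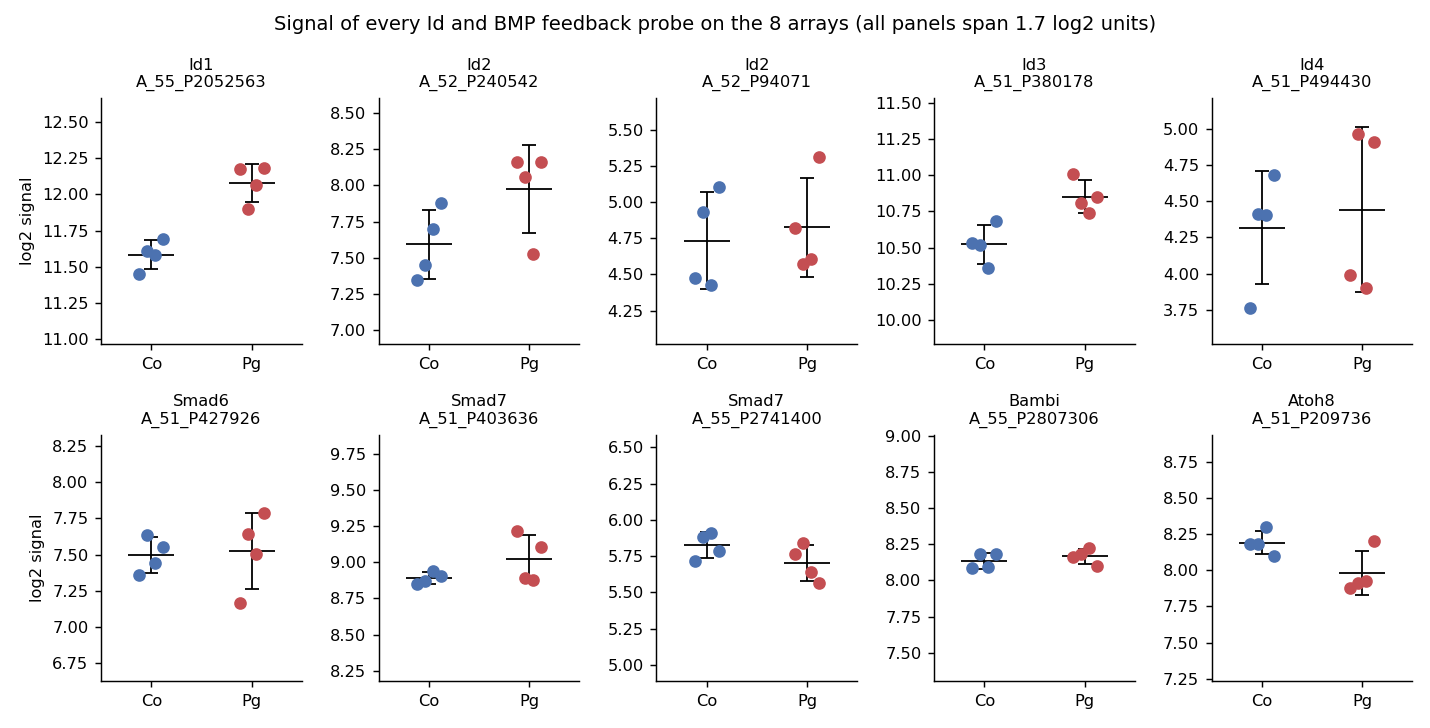
Log2 quantile-normalized signal of each of the 10 member probes on the 4 Co and 4 Pg arrays, with 1 panel per probe. Points are single mice, long lines are group means and bars are the SD. All panels span the same range, so that changes but not levels can be compared between panels. The Co and Pg points are fully separated in the *Id1* and *Id3* panels and overlap in the other panels.

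*Id1* encodes the inhibitor of DNA binding most often used as a readout of BMP receptor activity. Its probe (A_55_P2052563) is assigned by the array design to mm9 chr2:152563083-152563142 on the plus strand. Before normalization the intensity of this spot ranged from 2838 to 3277 in Co mice and from 3878 to 4937 in Pg mice. After normalization the log2 levels of *Id1* in replicates 1 to 4 were 11.45, 11.61, 11.58 and 11.69 in Co mice and 12.18, 11.90, 12.07 and 12.18 in Pg mice. All 4 Pg mice lay above all 4 Co mice, and the Pg mouse nearest to the Co group was replicate 2. Co mice averaged 11.58 ± 0.10 (SD, n = 4), against 12.08 ± 0.13 (SD, n = 4) for Pg mice. The log2 fold change was 0.50 ± 0.085 (SE; 95% interval 0.30 to 0.69; limma q = 0.0493), which placed the probe at rank 286 of 33820 by p-value. The interval of the fold change ran from 1.23 to 1.62 and therefore held the DEG threshold. The q rose above 0.1 without Co replicate 2 (q = 0.116) or Co replicate 3 (q = 0.114) and without normalization between arrays (q = 0.138). In the 8 fits that left out 1 array the log2 fold change stayed between 0.45 and 0.56.

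*Id3* encodes an inhibitor closely related to *Id1* in expression and function. Its probe (A_51_P380178) spans 175 bases of mm9, chr4:135700075-135700249 on the plus strand, although it is 60 bases long, so that it crosses a splice junction and reads spliced RNA. Its sequence is shown because it was called and reads across this junction:
Id3 probe: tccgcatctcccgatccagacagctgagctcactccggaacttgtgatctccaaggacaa
The log2 levels of *Id3* in replicates 1 to 4 were 10.54, 10.52, 10.36 and 10.69 in Co mice and 11.01, 10.81, 10.74 and 10.85 in Pg mice. The groups did not overlap, but Co replicate 4 and Pg replicate 3 were close to each other. Co mice averaged 10.52 ± 0.14 (SD, n = 4), against 10.85 ± 0.11 (SD, n = 4) for Pg mice, and the log2 fold change was 0.33 ± 0.089 (SE; 95% interval 0.12 to 0.54; limma q = 0.0924). Probes whose groups did not overlap made up 15.8% of all tested probes, and 4.83% were separated with Pg mice higher. The call of *Id3* lay close to the threshold: it was lost in 7 of the 8 fits that left out 1 array, with a log2 fold change between 0.27 and 0.39, and was kept only without Pg replicate 3 (q = 0.0979). It was also lost with 75th percentile scaling (q = 0.124), without normalization between arrays (q = 0.232) and without the filter on dim probes (q = 0.135).

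*Id2* encodes an inhibitor that is also known from fat cell differentiation and the circadian clock. Its probes lie 1176 bases apart on the minus strand of mm9, at chr12:25778904-25778963 (A_52_P240542) and chr12:25780080-25780139 (A_52_P94071). The log2 levels of the first in replicates 1 to 4 were 7.35, 7.45, 7.70 and 7.88 in Co mice and 8.16, 8.06, 7.52 and 8.16 in Pg mice. Here 3 Pg mice lay above every Co mouse and Pg replicate 3 lay among the Co mice. This gave a log2 fold change of 0.38 ± 0.18 (SE; 95% interval -0.022 to 0.79; limma q = 0.243). Without Pg replicate 3 it was 0.53 with a q of 0.0922, a change of the call that rests on 1 array. The second probe was dim, being well above background in 4 Co and 2 Pg mice, with log2 levels of 4.43 to 5.10 in Co mice and 4.57 to 5.31 in Pg mice that overlapped almost fully. Its log2 fold change was 0.092 ± 0.21 (SE; limma q = 0.826), and with both probes averaged *Id2* had 0.24 (limma q = 0.444).

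*Id4*, which is best known from neural and bone-forming cells, was near the detection limit. Its probe (A_51_P494430, mm9 chr13:48359180-48359239, plus strand) was well above background in 3 Co and 2 Pg mice. The log2 levels were 3.76, 4.41, 4.41 and 4.68 in Co mice and 3.99, 4.96, 3.90 and 4.91 in Pg mice. Pg replicates 2 and 4 lay above all Co mice, and the other two lay between the lowest Co mouse and the rest. *Id4* had a log2 fold change of 0.13 ± 0.31 (SE; 95% interval -0.58 to 0.83; limma q = 0.834), so that a change of the size of that of *Id1* lay within the interval.

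**Figure D2:**
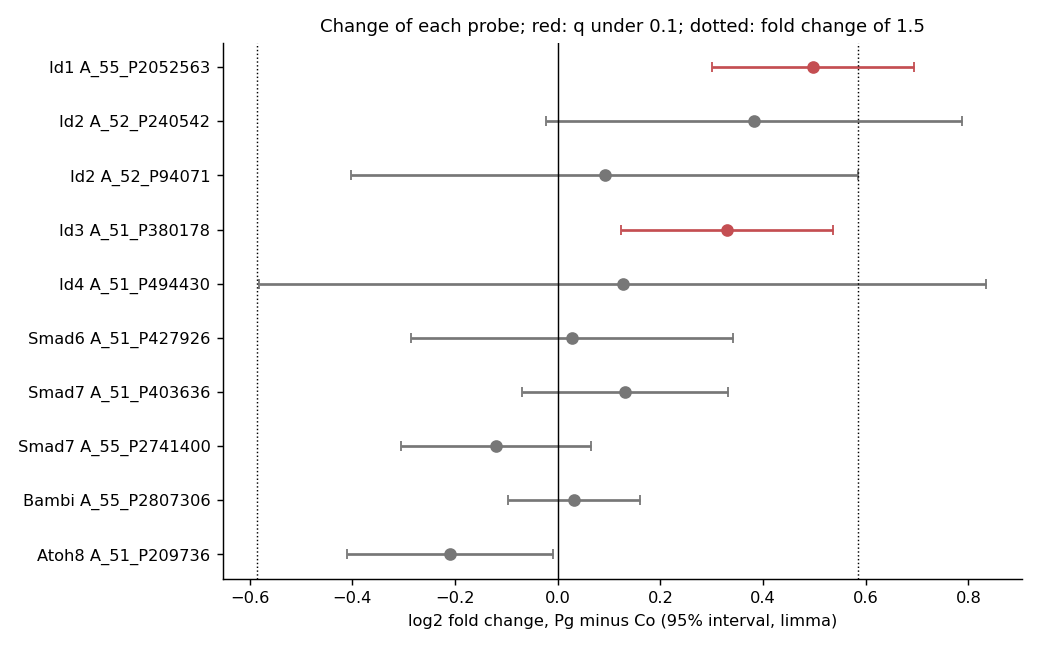
Log2 fold change (Pg minus Co) of each member probe with its 95% interval from limma, with called probes (q under 0.1) in red and dotted lines at a fold change of 1.5 in either direction. The intervals of *Id1* and *Id3* lie above 0, that of *Atoh8* reaches from -0.41 to -0.0097, and the interval of *Bambi* is the narrowest.

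The bases before the starts of *Id3*, which was called, and *Id2*, which was not, are given for comparison. RefSeq windows of 250 bases before a start (GRCm38.p6, not the build of the probe positions) were held for 5 members, *Id2*, *Id3*, *Id4*, *Smad6* and *Atoh8*. Those of the 3 Id genes end at the start of the annotated gene, whereas 26 bases of the *Smad6* window and 203 of the *Atoh8* window lie inside the annotated gene. They were searched on both strands for GTCTG or its complement CAGAC, the short element that SMAD proteins bind, for the palindrome GGCGCC found in BMP-responsive elements, for TATAAA, and for CCAAT or its complement ATTGG. Capitals mark the GTCTG or CAGAC matches in *Id3* and the GGCGCC match in *Id2*. The *Id3* window is chr4:136143572-136143821 on the plus strand and the *Id2* window is chr12:25096093-25096342 on the minus strand, both 5′ to 3′ along the gene:
Id3: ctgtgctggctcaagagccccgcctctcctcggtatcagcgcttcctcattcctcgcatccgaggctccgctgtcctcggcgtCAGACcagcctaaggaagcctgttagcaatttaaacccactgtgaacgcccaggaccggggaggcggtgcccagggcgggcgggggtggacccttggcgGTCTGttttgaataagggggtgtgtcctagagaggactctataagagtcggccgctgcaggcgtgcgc
Id2: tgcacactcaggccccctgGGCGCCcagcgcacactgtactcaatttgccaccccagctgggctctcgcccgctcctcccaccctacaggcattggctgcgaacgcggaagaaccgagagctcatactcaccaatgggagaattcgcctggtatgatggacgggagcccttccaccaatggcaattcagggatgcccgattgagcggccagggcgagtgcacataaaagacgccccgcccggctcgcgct
*Id3* held 2 GTCTG or CAGAC matches, with first bases at -167 and -68 from the gene start, and the other 4 windows held none, where 42.2% of 32851 RefSeq windows of this length hold at least 1. GGCGCC occurred once in *Id2* (at -231) and once in *Id4* (at -148), where 9.59% of all windows hold it. CCAAT or ATTGG occurred 3 times in *Id2* (at -159, -120 and -76) and 2 times in *Id4*, and is held by 33.8% of all windows. TATAAA, held by 12.4%, was in none of the 5. These matches describe the letters of the windows only.

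*Smad6* encodes the inhibitory SMAD that acts mainly on the BMP branch. Its probe (A_51_P427926) lies at mm9 chr9:63801378-63801437 on the minus strand and is shown as the feedback probe set against the Id probes:
Smad6 probe: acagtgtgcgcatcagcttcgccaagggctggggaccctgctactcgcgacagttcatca
Its log2 levels in replicates 1 to 4 were 7.36, 7.64, 7.44 and 7.56 in Co mice and 7.17, 7.65, 7.50 and 7.79 in Pg mice. The lowest and the highest of the 8 values both came from Pg mice, so that the Co range lay inside the Pg range. This gave *Smad6* a log2 fold change of 0.028 ± 0.14 (SE; 95% interval -0.28 to 0.34; limma q = 0.920). The upper end of this interval is below the measured change of *Id1*. However, the interval overlaps that of *Id1* (0.30 to 0.69) and holds the measured change of *Id3* (0.33).

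*Smad7*, on chromosome 18, encodes the inhibitory SMAD that acts on both the BMP and the TGF-β branch. Its 2 probes start 1566 bases apart in the transcript. The log2 levels of A_51_P403636 were 8.85, 8.87, 8.94 and 8.91 in Co mice and 9.21, 8.89, 8.88 and 9.11 in Pg mice. Pg replicates 1 and 4 lay above all Co mice, and the other two lay within the Co range. This probe had a log2 fold change of 0.13 ± 0.087 (SE; 95% interval -0.070 to 0.33; limma q = 0.409). The dimmer A_55_P2741400 had 5.72, 5.88, 5.91 and 5.79 in Co mice and 5.77, 5.84, 5.64 and 5.57 in Pg mice, again with overlap. Its log2 fold change was -0.12 ± 0.080 (SE; limma q = 0.408), and the sign was not kept with 75th percentile scaling (0.0017), without normalization (0.052) or with the normalized values of the authors (0.039). The change of the difference between the 2 *Smad7* probes was 0.25, with p = 0.0857 by the exact two-sided permutation test.

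*Bambi*, on chromosome 18, encodes a receptor-like protein without kinase activity that blocks BMP and TGF-β receptors. The log2 levels of its probe (A_55_P2807306) were 8.09, 8.18, 8.09 and 8.18 in Co mice and 8.16, 8.18, 8.22 and 8.10 in Pg mice. All 8 values lay within a narrow range, and the groups overlapped. *Bambi* had a log2 fold change of 0.031 ± 0.056 (SE; 95% interval -0.098 to 0.16; limma q = 0.773), the tightest interval of the members, and it turned to -0.068 with the median signal and to -0.071 with the normalized values of the authors. Its interval lay wholly below that of *Id1*.

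*Atoh8* encodes a basic helix-loop-helix factor that is induced by BMP9 in endothelial cells. Its probe (A_51_P209736) lies at mm9 chr6:72156816-72156875 on the minus strand. The log2 levels were 8.18, 8.18, 8.30 and 8.10 in Co mice and 7.88, 7.91, 7.93 and 8.20 in Pg mice. Pg replicates 1 to 3 lay below every Co mouse, whereas Pg replicate 4 was above 3 of them. *Atoh8* had a log2 fold change of -0.21 ± 0.087 (SE; 95% interval -0.41 to -0.0097; limma q = 0.202), which did not pass the threshold. The sign was negative in every setting, between -0.21 and -0.14 in the alternatives and between -0.29 and -0.18 with 1 array left out.

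Whether the members changed unequally was tested on the differences between probes within each array. All 45 pairs were compared by the exact two-sided permutation test, for which the 70 splits of 8 arrays into 4 and 4 allow no p below 0.0286. This smallest p was reached by 9 pairs, of which 5 contained *Id1*, and the adjusted p over the 45 pairs was then 0.143, so that no pair passed. With this limit on p no pair could pass alone, however large its change, so the adjusted result does not decide the question. The smallest p is reached when the Co and Pg differences do not overlap. Among single tested probes, 15.8% had groups that did not overlap, and the share among pairs of other probes was not computed. *Id1* gained 0.71 over *Atoh8*, 0.47 over *Smad6*, 0.47 over *Bambi*, and 0.37 and 0.62 over the *Smad7* probes on the log2 scale, each at the smallest p. *Id3* gained 0.54 over *Atoh8*, 0.45 over *Smad7* A_55_P2741400 and 0.30 over *Bambi*, and *Smad7* A_51_P403636 gained 0.34 over *Atoh8*, also at the smallest p. *Id1* gained 0.17 over *Id3*, with an exact p = 0.143.

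The genes whose pattern over the 8 arrays was closest to that of *Id1* and *Id3* were taken by the root mean square difference of the mean-centred log2 values among 22434 other genes. Closest to *Id1* were AK037391 (0.0508), *Cbx1* (0.0752), which encodes a heterochromatin protein, 4732423E21Rik (0.0757), Gm10836 (0.0819) and an intergenic transcript of chromosome 13. *Id3* stood at 0.137 from *Id1*, and 70 genes were closer. Closest to *Id3* were 5033418A18Rik (0.0392), *Lrig3* (0.0603), which encodes a membrane protein with leucine-rich repeats, *Rdh9* (0.0690), a retinol dehydrogenase gene, C530008M17Rik (0.0709) and *Zbtb2* (0.0714), a zinc finger gene. *Id1* was not among the nearest genes of *Id3*, with 570 genes closer, and no member was among the 5 nearest of either gene. These distances are a description over 8 arrays that share 1 normalization.

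**Figure D3:**
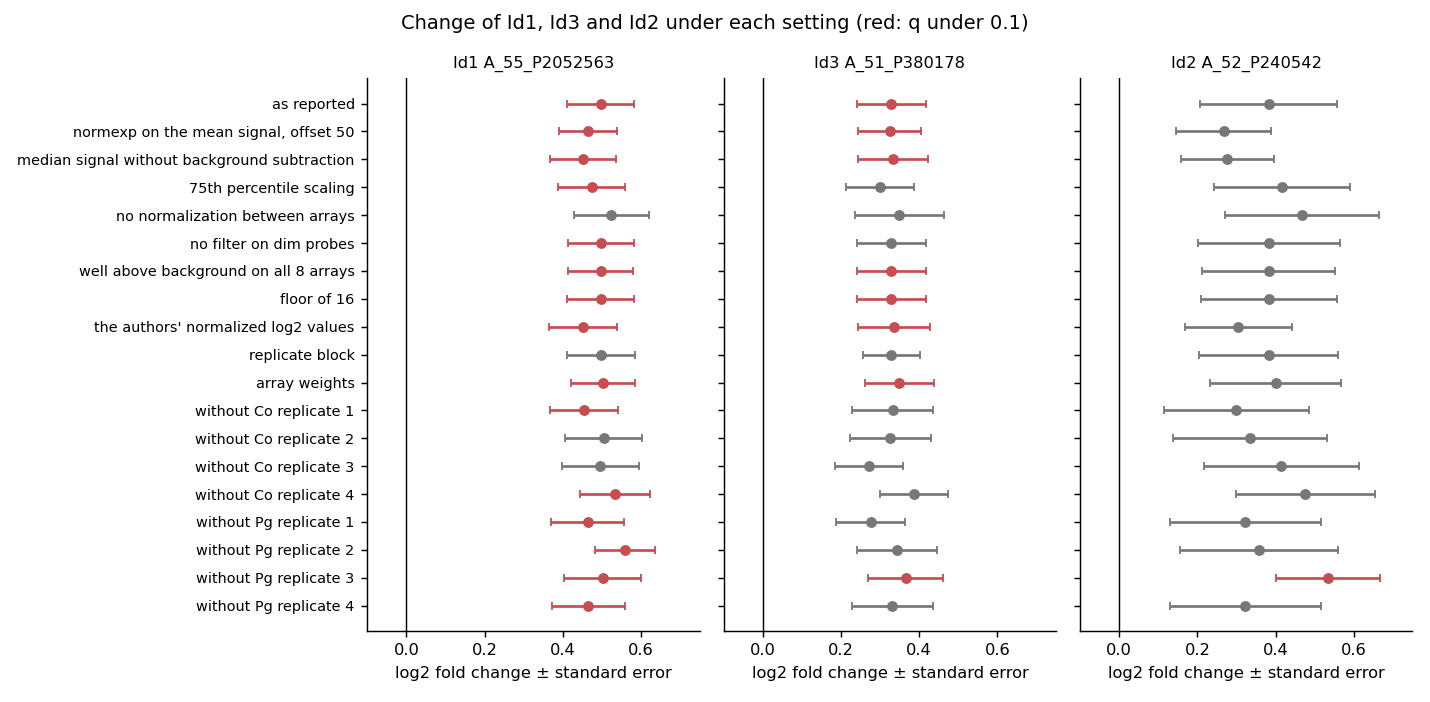
Log2 fold change ± SE of the *Id1* probe, the *Id3* probe and the brighter *Id2* probe as reported (top row), under each alternative processing and with each array left out, with values at a q under 0.1 in red. All points lie to the right of 0. *Id1* keeps its call in most rows, *Id3* loses it in most of the rows that leave out an array, and *Id2* gains it only without Pg replicate 3.

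Around the members, 97 genes of the BMP pathway and of Id partners were listed by role, 95 were on the array and 77 were tested, with the brightest probe standing for a gene. Of these, 3 were called higher and 4 lower in Pg mice (*Bmp10* among the lower passed the filter on dim probes through the Co mice alone), which is 9.09% beside 6.24% of all 22435 genes tested (2.06% higher and 4.18% lower). The median log2 fold change of the 77 was 0.0047, with 40 higher and 37 lower, and over all genes it was -0.014. The lists were chosen with earlier results of these data known. The 8 fits that left out 1 array gave between 0 and 8 calls, and none without Co replicate 3, where only 3 of all 33820 probes were called. *Rgma* was called in 6 of these 8 fits and *Hamp2* in 5, whereas the other called genes were called in 1 or 2.

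Of the BMP ligands, 9 of 14 were tested, and 5 were well above background on no array: *Bmp8b*, which encodes a ligand of brown fat, *Gdf2*, which encodes BMP9, *Bmp15*, *Gdf6* and *Gdf7*. In the other lists this held for *Smad9*, *Grem1*, *Sost*, *Dlx5* and *Myf5*. *Bmp10*, a ligand gene of the heart, had a limma q of 0.0553 for a lower level in Pg mice. Its log2 levels were 4.33, 4.18, 4.07 and 4.13 in Co mice and 3.55, 3.83, 3.24 and 3.42 in Pg mice, but no Pg mouse was well above background, so that the size of the change has only a bound, at least 1.02-fold lower, and the probe was tested only because the Co mice passed the filter. *Bmp4*, the ligand gene with the next smallest p, had a log2 fold change of -0.29 (limma q = 0.262).

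Among receptors and coreceptors, 12 were tested and *Rgma*, which encodes a membrane-anchored BMP coreceptor, was downregulated. Its log2 levels were 12.44, 12.57, 12.54 and 12.40 in Co mice and 12.18, 11.91, 11.90 and 11.77 in Pg mice. The groups did not overlap. *Rgma* had a log2 fold change of -0.55 ± 0.095 (SE; limma q = 0.0498), while the mean of a dimmer *Rgma* probe was higher in Pg mice. *Tgfbr3*, the betaglycan coreceptor gene, had -0.18 (limma q = 0.130). None of the 11 tested genes of SMADs and their regulators was called, and the smallest p values belonged to *Ppm1a*, a SMAD phosphatase gene (-0.20, limma q = 0.145), and *Smurf1*, a ubiquitin ligase gene that marks SMADs for degradation (0.16, limma q = 0.163). *Smad1* (-0.028) and *Smad5* (-0.042), whose products carry the BMP signal, had limma q of 0.869 and 0.781.

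Of 12 tested extracellular antagonists, 2 were called higher: *Chrdl2*, which encodes a chordin-like protein that binds BMPs (log2 fold change 0.45, limma q = 0.0796), and *Htra1*, a secreted protease gene (0.30, limma q = 0.0915). In both the groups overlapped, and the other probe of *Htra1* was lower in Pg mice. Of 13 other tested BMP targets, *Hamp2*, a hepcidin gene, was called lower. Its log2 levels ranged from 5.28 to 5.69 in Co mice and from 4.55 to 5.01 in Pg mice, without overlap, and 3 of the 4 Pg mice were well above background. The log2 fold change was -0.67 ± 0.12 (SE; limma q = 0.0517). *Tbx3*, a T-box factor gene, had 0.35 (limma q = 0.119).

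Of 20 tested E protein and partner genes, *Twist1*, a basic helix-loop-helix factor of mesenchymal cells, was called lower and *Elk3*, an ETS factor gene, was called higher. The log2 levels of *Twist1* were 6.11, 5.84, 5.67 and 5.69 in Co mice and 5.23, 4.80, 4.94 and 5.37 in Pg mice. The groups did not overlap, and the log2 fold change was -0.74 ± 0.15 (SE; limma q = 0.0591). *Elk3* had a log2 fold change of 0.43 (limma q = 0.0796) with overlapping groups, and its other probe was higher too. *Tcf3*, which encodes an E protein that Id proteins bind, had 0.0047 (limma q = 0.981), and the muscle factor genes *Myod1* and *Myog* had -0.40 and -0.12 with limma q of 0.530 and 0.793.

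**Figure D4:**
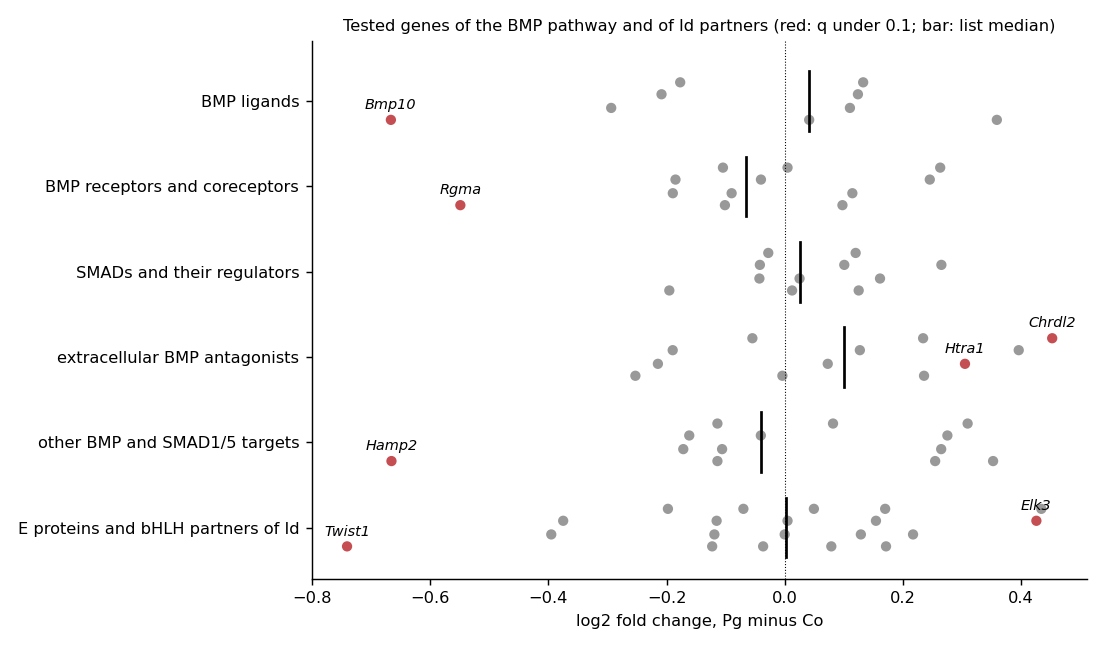
Log2 fold change (Pg minus Co) of the 77 tested genes of the BMP pathway and of Id partners, with 1 row per role, 1 point per gene, genes at a q under 0.1 in red with their names, and a bar at the median of each list. The bars lie close to 0, and the 7 called genes lie on both sides.

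The summed signal of the endothelial markers, like the *Id1* and *Id3* levels, was higher in Pg mice, but the order of the Pg mice differed. Among Pg mice the sum was highest in replicate 2, where *Id1* was lowest, and lowest in replicate 1, where *Id3* was highest. All 12 endothelial genes were well above background on all arrays and tested, with 9 higher and 3 lower in Pg mice at a median of 0.11 on the log2 scale, and 2 were called higher, which is 16.7% of the list beside 2.06% of all genes tested. These were *Egfl7*, which encodes a secreted vessel protein (0.42, limma q = 0.0419), and *Kdr*, which encodes the VEGF receptor of endothelial cells (0.57, limma q = 0.0573), whereas *Pecam1*, the CD31 gene, had -0.20 (limma q = 0.151). The log2 summed signal was 15.09 to 15.34 in Co mice and 15.45 to 15.53 in Pg mice, without overlap. *Egfl7* carried much of this sum, and without it the range was 14.28 to 14.61 in Co mice and 14.54 to 14.65 in Pg mice, with overlap. The marker list was chosen with earlier results of these data known, and the part of endothelial cells in the *Id1* and *Id3* levels was not tested.

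The summed signals of the other 9 marker lists overlapped between the groups. That of the macrophage list was 15.09 to 15.32 in Co mice and 15.03 to 15.71 in Pg mice. *Itgam*, an integrin gene, carried most of the macrophage sum, and without it the range was 13.08 to 13.85 in Co mice and 13.06 to 14.76 in Pg mice, with 7 of 10 macrophage genes higher and none called. The signal of the neutrophil list was 15.29 to 15.62 and 15.54 to 15.75. *Csf3r*, a growth factor receptor gene, carried most of the neutrophil sum, and without it the range was 9.46 to 9.68 in Co mice and 9.57 to 11.36 in Pg mice. All 6 tested neutrophil genes had higher means in Pg mice and none was called. The log2 levels of *S100a8*, which encodes a calprotectin subunit of neutrophils, were 4.56, 5.20, 5.33 and 5.09 in Co mice and 8.59, 8.32, 5.18 and 6.76 in Pg mice. Its log2 fold change was 2.16 ± 0.71 (SE; limma q = 0.132), and that of *S100a9*, the partner subunit gene, was 2.04 ± 0.82 (SE; limma q = 0.195). In both genes Pg replicate 3 lay within the Co range. *Cxcr2* and *Retnlg* were well above background in 0 Co and 2 Pg mice, and *Mmp9* and *Ngp* on no array. In the T and B cell list, 1 of 5 tested genes was called, *Cd79b*, a B cell receptor gene, with log2 levels of 5.29 to 6.12 in Co mice and 6.26 to 8.47 in Pg mice. The *Cd79b* groups did not overlap (log2 fold change 1.69 ± 0.44, SE; limma q = 0.0867), while *Cd3g* was well above background on no array. The part of neutrophils and B cells in the member levels was not tested. The red blood cell list ranged from 18.81 to 19.51 and from 17.72 to 19.56, with 6 of 6 genes lower and none called. The brown adipocyte list ranged from 18.84 to 18.99 in Co mice and from 18.97 to 19.10 in Pg mice, nearly all of it from the cytochrome oxidase subunit genes *Cox8b* and *Cox7a1*. Without both, the range was 13.96 to 14.22 in Co mice and 13.75 to 14.06 in Pg mice.

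**Figure D5:**
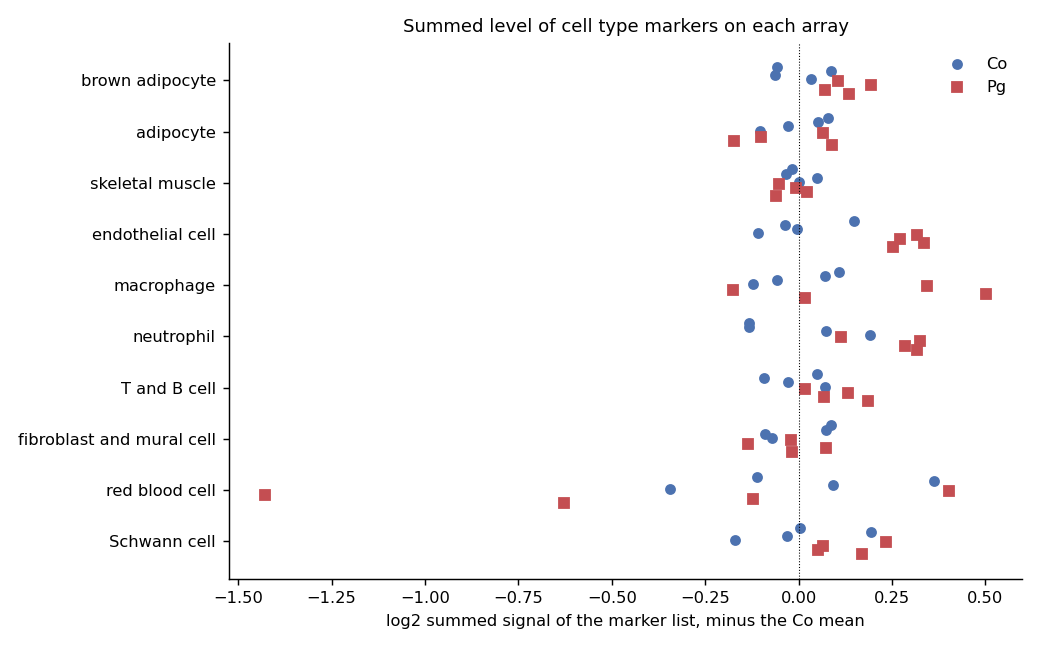
Log2 summed signal of each cell type marker list on each array, minus the mean of the Co arrays, with Co mice as circles and Pg mice as squares. The endothelial list is the only list without overlap between the groups, and 1 Pg mouse, replicate 3, is far below the others in the red blood cell list.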

How the data were processed

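Total RNA of 8 mice was hybridized to Agilent one-color arrays. The authors deposited the Feature Extraction 11.0.1.1 output of each array, with the background-subtracted, detrended Cy3 intensity of each spot, and a table of normalized log2 values, used here only as an alternative. Its columns of fold changes and p-values were not used. Control spots and population outliers were left out, spots of a probe averaged, and intensities quantile-normalized, raised to at least 1 and log2-transformed. Probes were kept if well above background in at least 4 mice and fitted with limma 3.58.1 in R 4.3.3 (lmFit and eBayes, two-sided, Benjamini-Hochberg over 33820 probes). Called genes had a q under 0.1, and DEGs also a fold change above 1.5, as in the study's methods. The number of arrays limits the precision. Probes were named by the deposited gene name, and 33903 of 56605 also through a RefSeq accession. Sequences came from the scanner files and RefSeq.

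Genes named were all members, of each pathway list the called genes or, where fewer than 2, those with the smallest p up to 2, the 5 nearest genes of *Id1* and *Id3*, of each marker list up to 3 of the brightest genes, and any marker well above background on no array. Pathway genes well above background on no array, *Cxcr2*, *Retnlg*, *S100a8*, *Pecam1*, *Smad1*, *Smad5*, *Tcf3*, *Myod1* and *Myog* were named after their values were seen. *Robo4* (log2 fold change 0.18), *Ly6g* (0.091), *Cd4* (-0.071) and *Cd3e* (0.084), which were not called, were brighter than the named *Kdr*, *S100a9* and *Cd79b* of their lists. Members and lists were chosen with earlier results of these data known. The fit was tested on simulated data. Alternatives were other background corrections (normexp with an offset of 50 and the median signal), scalings, filters, a floor of 16, the table's values, a replicate block, array weights, probe means, accession-based names and leaving out each array.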

Additional observations from a re-analysis of the deposited data

Results flagged for a closer look

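In 2 of the 20 groups of 4 values (10 probes in Co and in Pg mice), 1 mouse stood apart from the other 3 by Dixon's ratio, the gap to the nearest of them divided by the whole range. Chance gives such a gap in about 1 in 20 groups. For the brighter *Id2* probe, Pg replicate 3 had a log2 level of 7.52, and the other Pg mice had 8.06 to 8.16 (ratio 0.839). For *Atoh8*, Pg replicate 4 had a log2 level of 8.20, and the other Pg mice had 7.88 to 7.93 (ratio 0.844). The 2 values came from different mice.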

How the results depend on the processing

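*Id1* had a log2 fold change of 0.45 to 0.52 in the reported fit and its 10 alternatives, and a q under 0.1 in 9 of these 11. Of the member probes, 2 were called as reported, 1 with 75th percentile scaling, 1 without the filter on dim probes, and 0 without normalization between arrays (limma, 3 with an unadjusted p under 0.05), where all probes gave 29 calls in place of 2644, and 20 of these 29 were higher in place of 616. Leaving out 1 array gave 0 to 3 member probes and 0 to 8 pathway genes; the 0 for members came without Co replicate 2 or Co replicate 3 (limma, 2 with an unadjusted p under 0.05 in each), where 0.692% and 0.00887% of all probes were called in place of 7.82%. Of the pathway genes, 7 of 77 were called as reported, 11 of 77 with the median signal (9.06% of all probes), 3 of 77 with 75th percentile scaling (4.57%), 4 of 95 without the filter (2.24%), 4 of 65 with the normalized values of the authors (6.11%) and 0 of 77 without normalization (0.0857%; limma, 15 with an unadjusted p under 0.05). The sign of *Bambi* turned with the median signal (-0.068) and the values of the authors (-0.071), and that of *Smad7* A_55_P2741400 with 75th percentile scaling (0.0017), without normalization (0.052) and with the values of the authors (0.039). With 1 array left out, the log2 fold change ranged from -0.057 to 0.30 for *Id4*, from -0.060 to 0.15 for *Smad6* and from -0.069 to 0.21 for *Id2* A_52_P94071, so that these 3 also turned sign. The causes were not tested.

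The replicate numbers are shared by both groups but did not pair the arrays (correlations of the deviations of same-numbered arrays 0.059, -0.027, -0.068 and 0.18). With the replicate block, 0 member probes (limma, 2 with an unadjusted p under 0.05) and 0 pathway genes (17) were called, as were 0 of all probes. *Id1* then had a q of 0.122 and *Id3* a q of 0.135, at the same log2 fold changes of 0.50 and 0.33.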
